A study of Arabidopsis thaliana with 12 samples.

Results

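The genes described here are 10 regulators of epidermal cell fate in the Arabidopsis root, given as a list of locus identifiers, out of 33602 loci in the deposited count table. They are WEREWOLF (WER, AT5G14750), MYB23 (AT5G40330), GLABRA3 (GL3, AT5G41315), ENHANCER OF GLABRA3 (EGL3, AT1G63650), TRANSPARENT TESTA GLABRA1 (TTG1, AT5G24520), CAPRICE (CPC, AT2G46410), TRIPTYCHON (TRY, AT5G53200), GLABRA2 (GL2, AT1G79840), ROOT HAIR DEFECTIVE 6 (RHD6, AT1G66470) and ROOT HAIR DEFECTIVE SIX-LIKE 4 (RSL4, AT1G27740). Their messenger RNA was measured in roots of seedlings taken 6 days after exposure to light, in 4 groups of 3 biological replicates: sorted endodermis of the mutant myb36-1, sorted endodermis of wild type, whole roots of myb36-1 and whole roots of wild type. Wild type was the accession Col-0, which the labels also give as the ecotype of the mutant, and MYB36 encodes a MYB protein needed in the endodermis, the ring of cells that makes the Casparian strip. Sorted cells came from roots digested to protoplasts and separated by fluorescence, and whole roots were frozen directly. The fluorescent line used for the sort is not given in the sources used here, and sorted cells were extracted with another RNA kit than whole roots. Cell type, protoplasting, sorting and kit therefore cannot be told apart in any comparison of sorted cells with whole roots, and in bulk RNA fewer cells of a type and less RNA per cell cannot be told apart.

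The root epidermis consists of alternating files of hair and non-hair cells. In a non-hair cell the MYB protein WER, or its relative MYB23, joins the bHLH proteins GL3 and EGL3 and the WD40 protein TTG1 in a complex that switches on GL2, a homeodomain protein that represses hair formation. The same complex switches on CPC, a small MYB protein without an activation domain that moves into neighbouring cells and, like its relative TRY, competes with WER for the bHLH partners. In the hair cell GL2 stays low, and the bHLH protein RHD6 and its downstream relative RSL4 drive root hair outgrowth. In the root these genes are known mainly for their work in the epidermis, with WER also active in the lateral root cap, and not for the endodermis.

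The stretch just upstream of a gene is where such a complex would bind. For GL2, CPC and MYB23, 3 known targets of the WER complex, fitted responses in sorted cells varied in size, with no test between them. The 250 bases before the annotated start of each are shown here. They were read from the RefSeq TAIR10.1 genome in the direction of transcription, 5′ to 3′, and capitals mark the short MYB core AACNG on either strand. The windows are chr1:30036706-30036955 on the plus strand for GL2, chr2:19050370-19050619 on the minus strand for CPC and chr5:16127475-16127724 on the plus strand for MYB23.
GL2: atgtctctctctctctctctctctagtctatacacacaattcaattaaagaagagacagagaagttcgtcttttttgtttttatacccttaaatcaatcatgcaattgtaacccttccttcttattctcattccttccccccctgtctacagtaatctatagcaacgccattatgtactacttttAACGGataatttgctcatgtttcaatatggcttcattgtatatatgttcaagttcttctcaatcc
CPC: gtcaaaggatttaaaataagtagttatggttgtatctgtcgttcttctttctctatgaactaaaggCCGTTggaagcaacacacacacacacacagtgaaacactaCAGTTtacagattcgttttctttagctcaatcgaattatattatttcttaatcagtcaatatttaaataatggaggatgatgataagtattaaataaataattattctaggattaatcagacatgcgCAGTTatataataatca
MYB23: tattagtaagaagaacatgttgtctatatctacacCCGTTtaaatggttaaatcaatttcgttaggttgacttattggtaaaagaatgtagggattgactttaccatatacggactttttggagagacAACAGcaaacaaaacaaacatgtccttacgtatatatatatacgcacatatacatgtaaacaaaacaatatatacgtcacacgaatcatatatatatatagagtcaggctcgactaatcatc
The core occurred once upstream of GL2, 3 times upstream of CPC and in 2 places upstream of MYB23, and no copy lay in the same window of WER. At least 1 core lay upstream of 6 of the 10 genes, and 70.2% of 27437 promoters of that length held it. The bHLH target sequence CANNTG also lay upstream of 6 of the 10, against 55.3% of all promoters, and no match of one motif overlapped a match of the other. These matches describe letters only and show no binding.

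The libraries held 7280556 to 13427477 counts in sorted myb36-1 cells and 17721913 to 24274637 in sorted wild-type cells. In whole roots they held 19812171 to 21691381 counts in myb36-1 and 20928259 to 22722091 in wild type. MYB36 itself was counted in every library, at 695 to 1522 in sorted myb36-1 cells, 2487 to 4417 in sorted wild-type cells, 377 to 419 in myb36-1 whole roots and 739 to 798 in wild-type whole roots. The position of the myb36-1 lesion is not in the labels, so these counts say nothing of a library's genotype. Of 9 endodermis markers, 8 were higher in sorted cells than in whole roots in each genotype, beside 33.4% of all genes tested in wild type and 12.3% in myb36-1. Sorted and whole-root ranges overlapped for ESB1 in wild type and for CASP2 in myb36-1. Over the 9 markers the summed level was 1028 to 1439 CPM in sorted myb36-1 cells and 2424 to 3629 CPM in sorted wild-type cells. In whole roots it was 102 to 107 CPM in myb36-1 and 620 to 803 CPM in wild type. Between the genotypes in sorted cells 7 of these 9, which include targets of MYB36, were lower in myb36-1, 1 was higher and 1 was not called. Of all genes tested there, 12.9% were lower and 15.6% higher. CASP2 passed the filter on low counts only through the wild-type libraries, so a difference was built into its being tested. CPM is the count as a share of the library total, rescaled to a common depth by trimmed means (TMM) over all 12 libraries. Levels below are in this unit, and log2 fold changes, standard errors (SE) and p-values come from edgeR's quasi-likelihood F-test with Benjamini-Hochberg adjustment over all genes tested, a gene being called at an adjusted p under 0.05.

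In sorted endodermis, transcripts of 8 of the 10 regulators were lower in myb36-1 than in wild type, those of GL3 and TTG1 were not called, and none was higher. Of all 18318 genes tested in that comparison, 28.5% were called, 12.9% lower and 15.6% higher. The median log2 fold change was -2.29 over the 10 regulators, including TRY, whose fitted value depends on the prior count, and -0.05 over all genes tested. Before the test, 7 of the 10 passed the filter on low counts in both genotypes, and 5 of these 7 were called. WER, TRY and MYB23 passed only through the wild-type libraries, so that for these 3 a difference was built into their being tested.

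WER, the MYB protein at the head of the non-hair pathway, lies on chromosome 5 from 4763372 to 4764834 (TAIR10.1, minus strand, 2 or 3 exons depending on the transcript). It stood at 0.0883, 3.14 and 0.145 CPM in sorted myb36-1 cells, against 55.3, 75.1 and 48.4 CPM in sorted wild-type cells. The groups lay far apart, and mutant replicate 2, with 25 raw counts against 1 in each of the other mutant libraries, held nearly all of the mutant signal. The log2 fold change was -5.74 (SE 0.91, 95% interval -7.83 to -3.65, edgeR adjusted p = 0.00342), and it was -8.95 without mutant replicate 2.

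MYB23, which reinforces the non-hair choice and is itself activated by WER, lies on chromosome 5 from 16127725 to 16129661 (plus strand, 3 exons). Its level was 0.265, 1.38 and 0 CPM in sorted myb36-1 cells and 17.0, 15.0 and 12.4 CPM in sorted wild-type cells. No mutant library came near the lowest wild-type library, and the third mutant library had no count, which allows up to 0.435 CPM. MYB23 fell by 4.71 on the log2 scale (SE 0.86, 95% interval -6.69 to -2.73, edgeR adjusted p = 0.00600), and the log2 fold change was -6.45 when mutant replicate 2 was left out.

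The partners of these MYB proteins gave different calls, EGL3 being lower and GL3 and TTG1 not called. EGL3 (chromosome 1, 23599413 to 23603164) had 4.86, 6.79 and 11.0 CPM in sorted myb36-1 cells and 24.8, 40.4 and 18.1 CPM in sorted wild-type cells, without overlap. It fell by 1.86 on the log2 scale (SE 0.42, 95% interval -2.83 to -0.89, edgeR adjusted p = 0.0137). This call was lost without wild-type replicate 2 (adjusted p = 0.0779, lowest over the alternatives 0.000405). GL3 (chromosome 5, 16529090 to 16533287), which encodes a bHLH protein that acts redundantly with EGL3, had 3.00, 13.2 and 14.8 CPM in sorted myb36-1 cells and 16.5, 16.4 and 10.7 CPM in sorted wild-type cells. Its groups overlapped and mutant replicate 1 stood below the other mutant libraries, with a log2 fold change of -0.48 (95% interval -1.73 to 0.77, edgeR adjusted p = 0.550). TTG1 (chromosome 5, 8370317 to 8372847), the shared WD40 component, had 12.0, 9.43 and 5.95 CPM in sorted myb36-1 cells and 6.76, 8.74 and 8.97 CPM in sorted wild-type cells. Its log2 fold change was 0.20 (95% interval -0.69 to 1.08, edgeR adjusted p = 0.740). Whether EGL3 differed from GL3 in its response was not tested.

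Both genes for the mobile inhibitors, CPC and TRY, were called lower, and whether they differed in size of response was not tested. CPC (chromosome 2, 19049021 to 19050369, minus strand, 3 exons) had 19.3, 18.2 and 10.4 CPM in sorted myb36-1 cells and 35.0, 30.3 and 33.8 CPM in sorted wild-type cells. The groups did not overlap, and CPC kept the highest level per kilobase of the 10 genes in sorted myb36-1 cells. It fell by 1.01 on the log2 scale (SE 0.28, 95% interval -1.66 to -0.36, edgeR adjusted p = 0.0307). The call rested on the full set of wild-type libraries, since without wild-type replicate 1, 2 or 3 the adjusted p was 0.106, 0.0829 or 0.101 (lowest over the alternatives 0.00309). TRY (chromosome 5, 21582614 to 21584243, plus strand, 3 exons) had 1, 0 and 0 raw counts in sorted myb36-1 cells, against 60, 110 and 47 in sorted wild-type cells. It was 98.7-fold lower in sorted myb36-1 cells, with an exact 95% interval of 17.5 to 3915 that covers counting error only (edgeR adjusted p = 0.00480).

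GL2, the output of the non-hair pathway, lies on chromosome 1 from 30036956 to 30041440 (plus strand, 6 to 10 exons). It had 5.91, 8.80 and 9.72 CPM in sorted myb36-1 cells and 58.6, 62.9 and 48.9 CPM in sorted wild-type cells. The libraries within each group lay close together and the groups did not overlap. GL2 fell by 2.78 on the log2 scale (SE 0.27, 95% interval -3.41 to -2.16, edgeR adjusted p = 0.000652), the lowest adjusted p among the 10. The calls of GL2, WER, MYB23 and TRY held in each of the 11 alternatives run for them.

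Both hair-promoting genes were lower as well, with a wide spread among the mutant libraries. RHD6 (chromosome 1, 24795214 to 24797015, plus strand, 5 exons) had 0.883, 6.67 and 14.7 CPM in sorted myb36-1 cells and 50.8, 62.2 and 31.2 CPM in sorted wild-type cells. Mutant replicate 1 was the lowest and mutant replicate 3 the highest, still under the lowest wild-type library. RHD6 fell by 2.71 on the log2 scale (SE 0.77, 95% interval -4.47 to -0.95, edgeR adjusted p = 0.0315), or by 3.71 without mutant replicate 3. RSL4 (chromosome 1, 9654475 to 9656089, plus strand, 4 exons) had 1.77, 6.67 and 8.71 CPM in sorted myb36-1 cells and 16.6, 23.2 and 23.9 CPM in sorted wild-type cells. The groups were apart here too, and RSL4 fell by 1.88 on the log2 scale (SE 0.53, 95% interval -3.10 to -0.66, edgeR adjusted p = 0.0310). Each call was lost without mutant replicate 2, at an adjusted p of 0.0794 for RHD6 and 0.0531 for RSL4. Without wild-type replicate 1, 2 or 3 the adjusted p was 0.0846, 0.113 or 0.0565 for RHD6 and 0.0702, 0.114 or 0.101 for RSL4, and the lowest over the alternatives was 0.000989 for RHD6 and 0.00333 for RSL4.

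**Figure D1:**
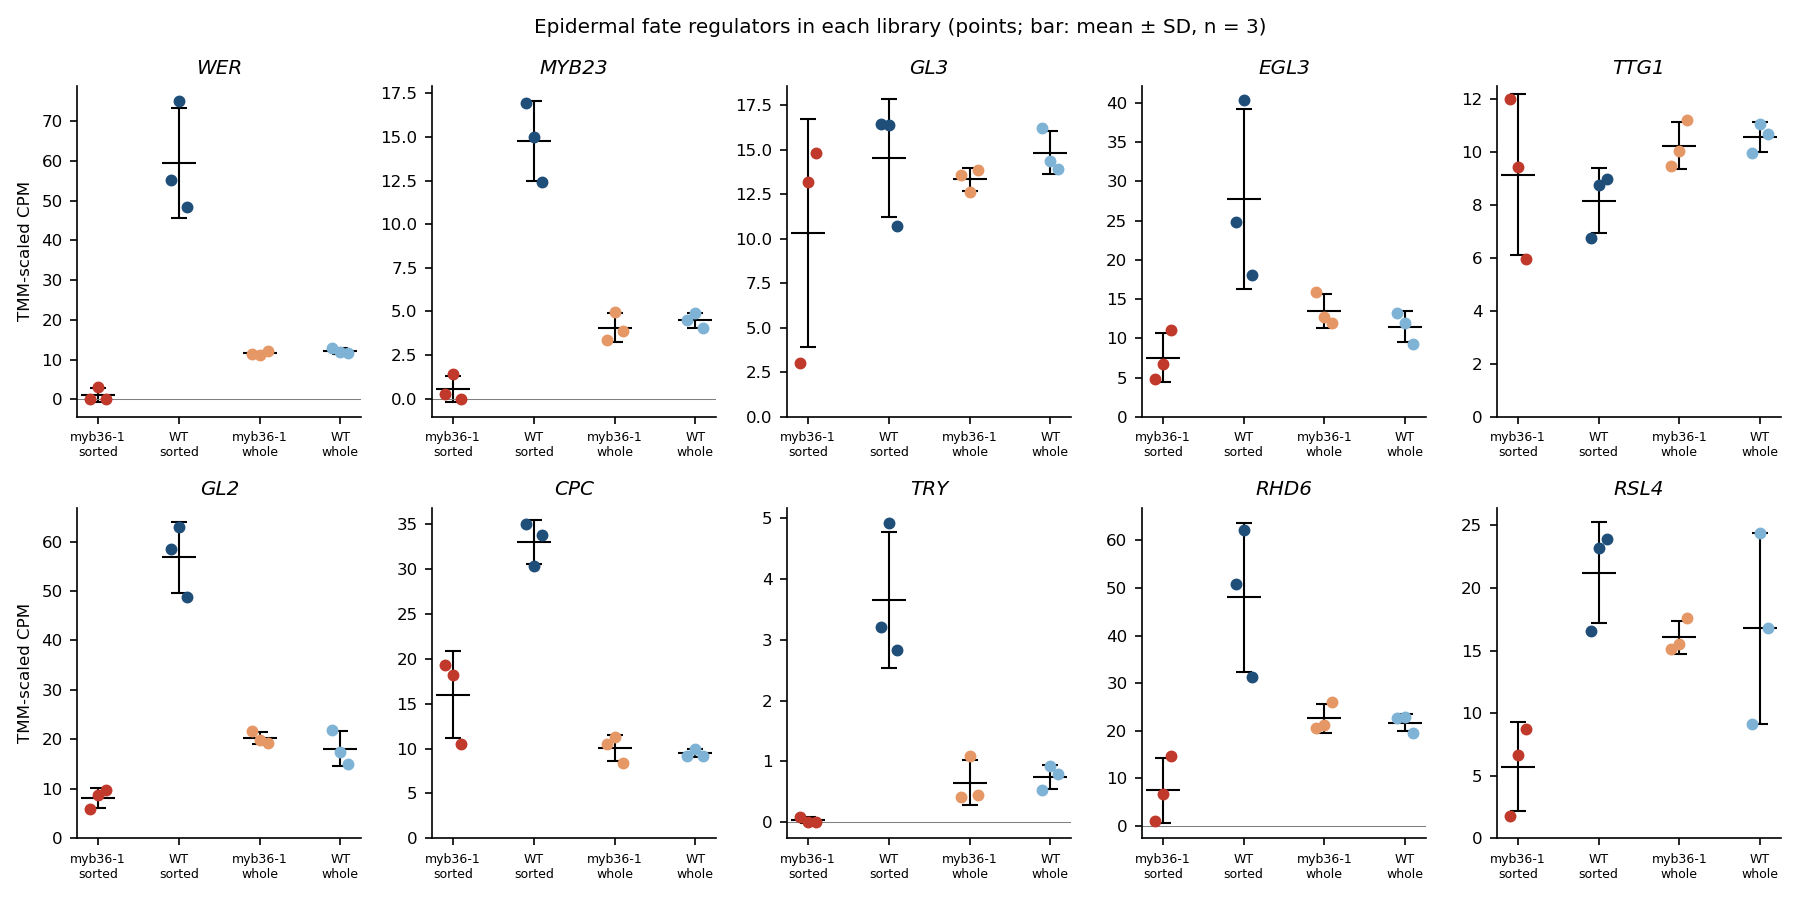
Level of each of the 10 regulators in every library, as TMM-scaled CPM on a linear axis with its own scale for each gene, with 1 point per library and a bar for mean ± SD (n = 3). From left to right the groups are sorted myb36-1, sorted wild type, myb36-1 whole root and wild-type whole root. The sorted groups are apart for 8 genes and overlap for GL3 and TTG1. The share of all genes whose sorted groups lie apart was not computed. The 28.5% of genes called in that comparison is another measure, since a gene can lie apart and not be called. The whole-root means lie close together, and wild-type RSL4 has the widest spread there.

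Markers of neighbouring cell types moved in the same libraries. Root cap markers summed to 2.14 to 17.8 CPM in sorted myb36-1 cells and 104 to 144 CPM in sorted wild-type cells. In whole roots they summed to 53.0 to 71.7 CPM in myb36-1 and 37.1 to 62.3 CPM in wild type. Between the sorted groups 4 of 5 were lower in myb36-1, beside 12.9% of all genes tested. SMB, BRN1 and BFN1 passed the filter on low counts only through the wild-type libraries. For these genes a difference was built into their being tested. BRN1, a root cap transcription factor with the lowest ratio of the 5, had 7, 3 and 2 counts in sorted myb36-1 cells, against 1092, 1612 and 1155 in sorted wild-type cells. FEZ, another of the 5, overlapped between these groups and had the higher mean in the mutant. It stood at 3.88, 0.252 and 12.8 CPM in sorted myb36-1 cells and 3.70, 3.36 and 5.06 CPM in sorted wild-type cells. Of 12 root hair markers, 7 were lower in sorted myb36-1 cells and 5 were not called. EXPA18 and ROPGEF3 among the 12 also passed the filter only through the wild-type libraries. The summed level of the 12 was 358 to 1062 CPM in sorted myb36-1 cells and 953 to 1023 CPM in sorted wild-type cells. In whole roots it was 1113 to 1267 CPM in myb36-1 and 694 to 1125 CPM in wild type. CSLD3, whose sorted groups overlapped, made up most of the sum in every sorted library. It stood at 254 to 726 CPM in sorted myb36-1 cells and 553 to 680 CPM in sorted wild-type cells. Of 5 stele markers 3 were tested in that comparison and 0 were called by edgeR, with sums of 161 to 220 CPM in sorted myb36-1 cells and 197 to 247 CPM in sorted wild-type cells. No marker of these lists was at 0 in all 3 libraries of a group. The part of root cap and epidermal cells in the levels of the 10 regulators was not tested.

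**Figure D2:**
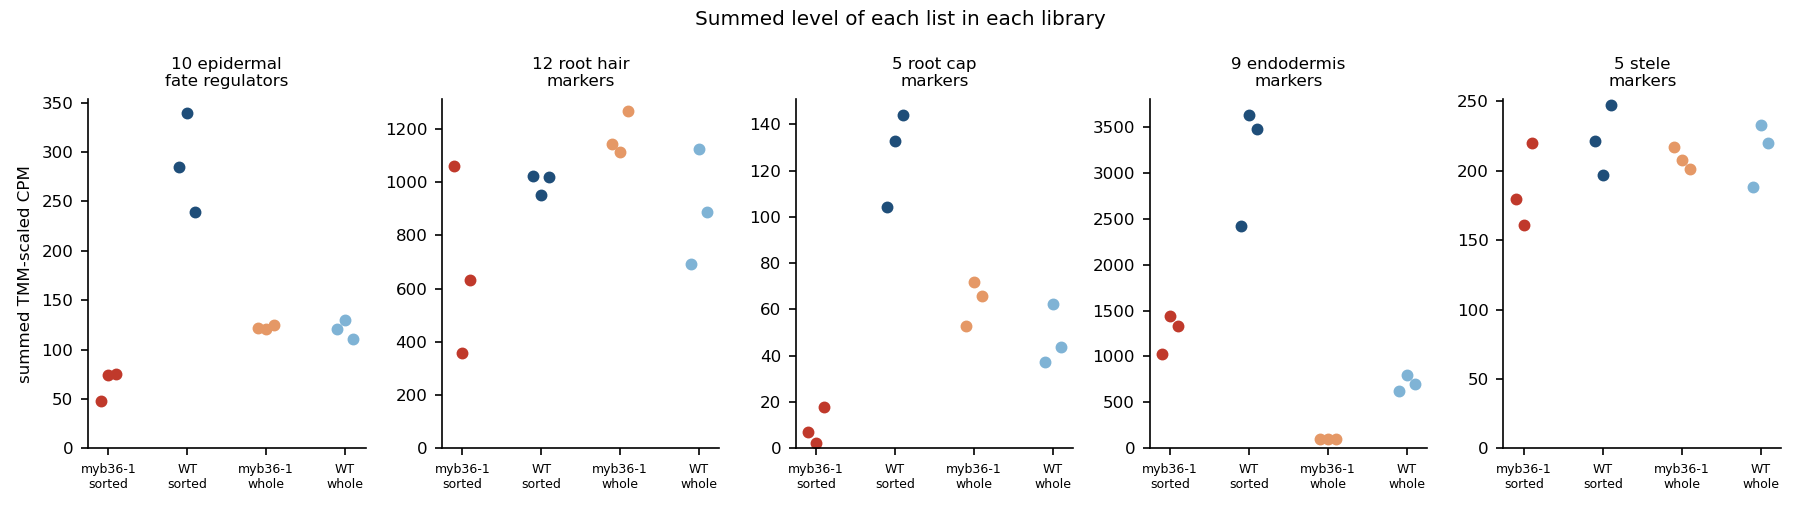
Summed TMM-scaled CPM of the marker lists and of the 10 regulators, with 1 point per library on a linear axis for each list, and the groups ordered sorted myb36-1, sorted wild type, myb36-1 whole root and wild-type whole root. The root cap sums of 2.14 to 17.8 CPM in sorted myb36-1 cells lie below the 104 to 144 CPM of sorted wild-type cells, and the 10 regulators sum to 48.2 to 75.5 CPM in sorted myb36-1 cells against 239 to 339 CPM in sorted wild-type cells.

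In whole roots no difference between the genotypes was detected for any of the 10. None was called, 0 had an unadjusted p under 0.05 in edgeR, and 0 were called by DESeq2, while 6.1% of the 19624 genes tested were called, 3.25% higher in myb36-1 and 2.85% lower. GL2 had 21.7, 19.9 and 19.4 CPM in myb36-1 whole roots and 21.9, 17.4 and 15.0 CPM in wild-type whole roots, with a log2 fold change of 0.17 (95% interval -0.17 to 0.51). WER had 11.4, 11.2 and 12.0 CPM in myb36-1 whole roots and 13.0, 11.9 and 11.7 CPM in wild-type whole roots, at -0.07 (95% interval -0.34 to 0.20). The mutant and wild-type ranges overlapped for both genes. Those of GL3, which was not called, lay just apart, at 12.61 to 13.86 CPM in myb36-1 whole roots and 13.90 to 16.21 CPM in wild-type whole roots. RHD6 had 20.6, 21.1 and 26.0 CPM in myb36-1 whole roots and 22.7, 22.8 and 19.5 CPM in wild-type whole roots, at 0.06 (95% interval -0.23 to 0.36). RSL4 had 15.1, 15.5 and 17.6 CPM in myb36-1 whole roots and a wider 9.14, 24.4 and 16.8 CPM in wild-type whole roots, at -0.05 (95% interval -0.70 to 0.59). The remaining log2 fold changes were 0.09 for CPC, -0.20 for TRY, 0.23 for EGL3, -0.15 for GL3, -0.04 for TTG1 and -0.14 for MYB23, with adjusted p-values over all 10 of 0.523 to 0.948. TRY had the widest interval, -1.15 to 0.76, on 9 to 23 counts per library in myb36-1 whole roots and 13 to 21 in wild-type whole roots.

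The difference between the genotype effect in sorted cells and that in whole roots was tested as an interaction over all 12 libraries, in which 28.4% of 20302 genes were called, 14.6% lower and 13.8% higher. Of the 10 regulators, 8 were called lower and 0 higher, so for these 8 the log2 fold change of myb36-1 over wild type was lower in sorted cells than in whole roots. The interaction was -2.98 for GL2 (SE 0.31, edgeR adjusted p = 4.28e-05), -5.71 for WER (SE 0.84, adjusted p = 0.000434), -4.60 for MYB23 (SE 0.80, adjusted p = 0.00129) and -2.12 for EGL3 (SE 0.48, adjusted p = 0.00591). It was also called for TRY at an adjusted p of 0.00129, for RHD6 at -2.81 (SE 0.80, adjusted p = 0.0206), for CPC at -1.12 (SE 0.33, adjusted p = 0.0227) and for RSL4 at -1.86 (SE 0.64, adjusted p = 0.0459). Without sorted myb36-1 replicate 2 the value was -8.90 for WER and -6.30 for MYB23, and without sorted myb36-1 replicate 3 it was -3.81 for RHD6. GL3 at -0.36 and TTG1 at 0.22 were not called, with edgeR adjusted p-values of 0.687 and 0.706. RSL4 lost its call in 8 of 16 alternatives (highest adjusted p = 0.0990), CPC in 5 (0.0614) and RHD6 in 3 (0.0562), and the lowest adjusted p over the alternatives was 0.0150, 0.00595 and 0.00150 for these genes in that order.

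**Figure D3:**
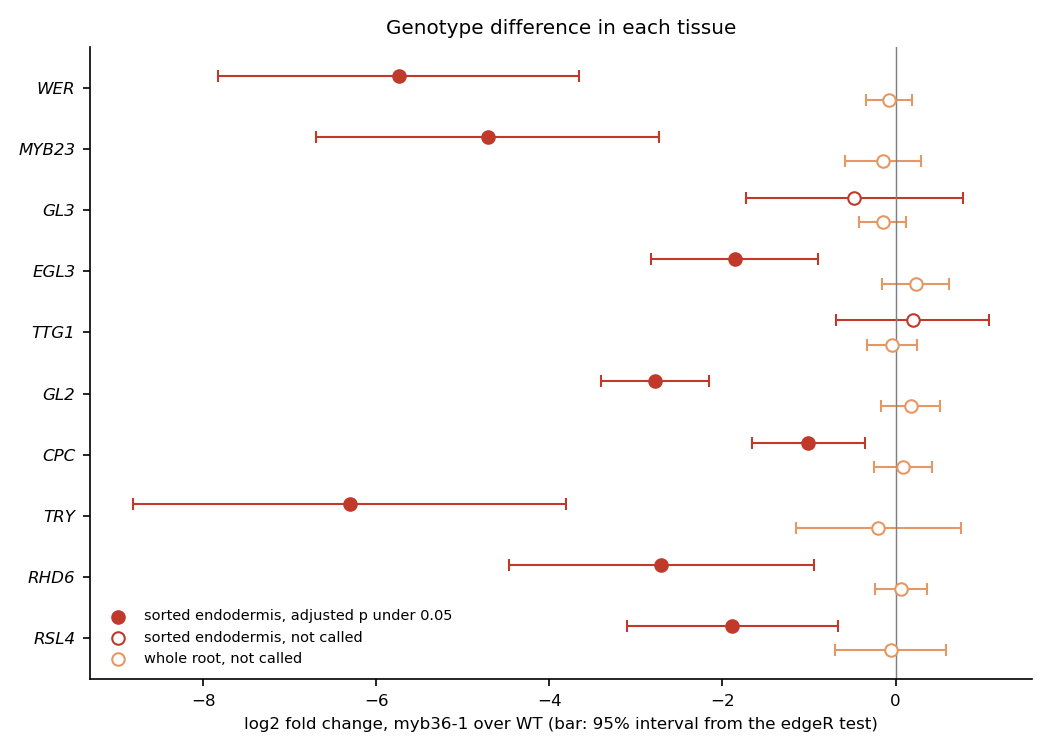
Log2 fold change of myb36-1 over wild type for each of the 10 regulators, in sorted endodermis and in whole root, with 95% intervals from the edgeR fit; filled points were called and open points were not. The sorted values lie at or below -1.01 for the 8 called genes, with the fitted TRY value depending on the prior count, while the whole-root values lie between -0.20 and 0.23.

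Sorted endodermis was then set against whole roots within each genotype. These comparisons share their libraries with the genotype comparisons above and are no independent evidence of them. In wild type, 7 of the 10 were higher in sorted endodermis than in whole roots and 0 were lower. Of all 19747 genes tested, 68.7% were called, 33.4% higher and 35.4% lower. The share of the 10 called in either direction was thus near that of all genes. WER averaged 59.6 ± 13.8 CPM in sorted cells and 12.2 ± 0.70 CPM in whole roots (SD, n = 3 each), a log2 fold change of 2.31 (SE 0.18). GL2 averaged 56.8 ± 7.19 CPM in sorted cells and 18.1 ± 3.52 CPM in whole roots, at 1.68 (SE 0.17). CPC averaged 33.0 ± 2.46 CPM in sorted cells and 9.46 ± 0.46 CPM in whole roots, at 1.83 (SE 0.14), and MYB23 averaged 14.8 ± 2.29 CPM in sorted cells and 4.50 ± 0.44 CPM in whole roots, at 1.74 (SE 0.19). TRY (2.32), EGL3 (1.30) and RHD6 (1.18) were the others called, and RHD6 lost its call when all 12 libraries were fitted together (edgeR adjusted p = 0.0966, lowest over the alternatives 4.56e-06). RSL4 at 0.37, GL3 at 0.00 and TTG1 at -0.35 were not called (edgeR adjusted p = 0.307, 0.994 and 0.102). Beside these values, 4 of 5 root cap markers were higher and 1 lower in sorted wild-type cells than in wild-type whole roots. Of 12 root hair markers 2 were higher and 4 lower, and of 5 stele markers 3 were lower. Among the stele markers, APL and VND7 passed the low-count filter only through the whole-root libraries.

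In myb36-1, sorted endodermis held less GL2 than whole roots, at 8.15 ± 1.99 CPM in sorted cells and 20.3 ± 1.25 CPM in whole roots (log2 fold change -1.31, SE 0.28, edgeR adjusted p = 0.0121), and GL2 was the only one of the 9 regulators tested that was called. Of 19347 genes tested there, 29.6% were called, 17.3% lower and 12.3% higher. The GL2 call was lost without any one of the 3 myb36-1 whole-root libraries (highest adjusted p = 0.0701, lowest over the alternatives 0.000136). WER averaged 1.13 ± 1.75 CPM in sorted cells and 11.6 ± 0.42 CPM in whole roots (-3.36, edgeR adjusted p = 0.0508), and MYB23 averaged 0.55 ± 0.73 CPM in sorted cells and 4.07 ± 0.84 CPM in whole roots (-2.86, adjusted p = 0.0742). These values moved with the setting: WER ranged from -2.76 to -6.56 over 11 alternatives and was called in 6 of them, and MYB23 reached -4.58 and was called in 4. WER and MYB23 were lowest without sorted replicate 2, and both passed the low-count filter only through the whole-root libraries. RSL4 at -1.49 and RHD6 at -1.61 had edgeR adjusted p-values of 0.0768 and 0.162, and CPC stood at 0.70 with 0.150. RSL4 was called in 4 of 11 alternatives and RHD6 in 3, where it reached -2.63 without sorted replicate 3. TRY was not tested for lack of counts, with 1 count in the 3 sorted libraries and 42 in the 3 whole-root libraries, 16.8-fold lower in sorted cells (exact 95% interval 2.86 to 681, counting error only). An unadjusted p under 0.05 was found for 4 of the 9 by edgeR, and DESeq2 called 4 lower.

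**Figure D4:**
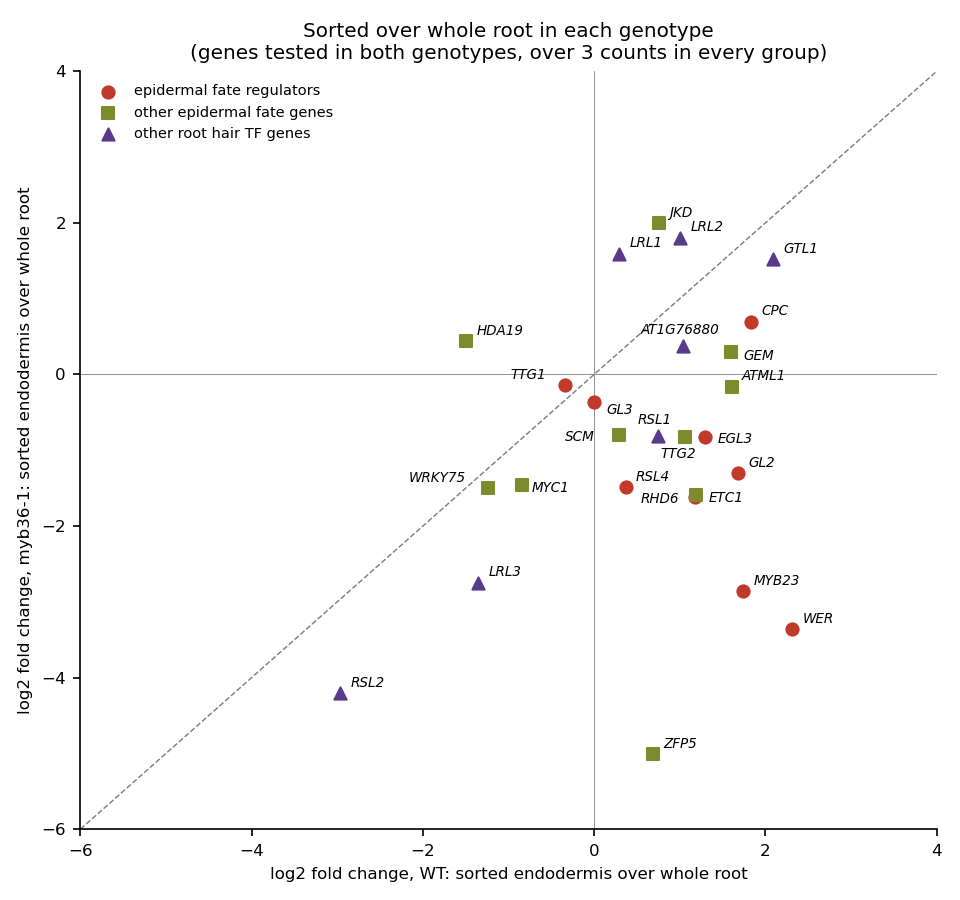
Log2 fold change of sorted endodermis over whole root in wild type (horizontal) and in myb36-1 (vertical) for the regulators and related genes that were tested in both genotypes and had over 3 counts in every group, with the line of equal change dashed. Of the regulators, 9 are plotted, since TRY was not tested in myb36-1; WER lies at 2.31 and -3.36 and MYB23 at 1.74 and -2.86, while TTG1 and GL3 lie near the line.

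Per kilobase of exon, the order of the 10 genes also differed between the sorted groups. In sorted wild-type cells WER led at 47.4 CPM per kilobase, ahead of CPC at 43.3 and RHD6 at 33.7, and the ranges of neighbours in this order overlapped. GL2 followed at 17.7, below the range of RHD6, then RSL4 at 15.9, MYB23 at 15.1 and EGL3 at 10.6 with overlapping ranges, and GL3 at 5.38, TTG1 at 4.34 and TRY at 4.05 CPM per kilobase came last. In sorted myb36-1 cells CPC led alone at 21.0 CPM per kilobase. RHD6 at 5.19, TTG1 at 4.86, RSL4 at 4.27, GL3 at 3.83, EGL3 at 2.89, GL2 at 2.54, WER at 0.90, MYB23 at 0.56 and TRY at 0.03 CPM per kilobase followed, each overlapping the next. In whole roots RHD6 had the highest mean per kilobase in both genotypes, at a mean of 15.8 CPM in myb36-1 and 15.2 CPM in wild type, but its range overlapped that of the next gene in each, CPC in myb36-1 and RSL4 in wild type. TRY was lowest, at 0.72 CPM in myb36-1 and 0.83 CPM in wild type.

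Of 19 other genes of the epidermal fate pathway, 11 were tested in sorted cells between the genotypes, of which 5 were lower, 2 higher and 4 did not pass, beside 12.9% of all genes tested called lower and 15.6% higher. Only 6 of the 11 passed the low-count filter in both genotypes, of which 2 were lower, 2 higher and 2 not called. HDG11, ZFP5 and ETC1, described next, passed only through the wild-type libraries, so a difference was built into their being tested in sorted cells. HDG11, a homeodomain relative of GL2, had 0 counts in sorted myb36-1 cells and 120 in sorted wild-type cells, at least 18.2-fold lower against a floor of 3 counts over the group. ZFP5, a zinc finger protein that promotes root hairs, averaged 0.31 ± 0.43 CPM in sorted myb36-1 cells and 11.0 ± 1.90 CPM in sorted wild-type cells (log2 -4.92, SE 0.87, edgeR adjusted p = 0.00510). ETC1, a relative of CPC and TRY, was at 0.25 ± 0.32 CPM in sorted myb36-1 cells and 3.82 ± 0.51 CPM in sorted wild-type cells (-3.72, SE 1.02, adjusted p = 0.0279). The histone deacetylase gene HDA19 went the other way, at 164 ± 21.9 CPM in sorted myb36-1 cells and 38.7 ± 5.60 CPM in sorted wild-type cells (2.12, SE 0.22, adjusted p = 0.000701). In whole roots 2 of 12 tested were higher and 0 lower, beside 3.25% and 2.85% of all genes. SCM, the receptor-like kinase through which position is read by the epidermis, had 31.5, 32.0 and 31.4 CPM in myb36-1 whole roots and 8.98, 10.1 and 12.4 CPM in wild-type whole roots (log2 1.60, SE 0.13, edgeR adjusted p = 0.000175). Its groups were far apart there, and in sorted cells SCM was not called (log2 0.55, adjusted p = 0.315). The interaction for SCM missed the threshold, with a log2 value of -1.07 (edgeR adjusted p = 0.0685), so a difference between the tissues was not shown. ZFP5 was the other gene higher in myb36-1 whole roots (0.74, edgeR adjusted p = 0.0355), in contrast to sorted cells, and its interaction was called at -5.64 (adjusted p = 0.000156). HDG11 and ETC1 (-2.74) were also called lower in the interaction and HDA19 (1.94) higher, 5 of 12 tested being lower and 2 higher, beside 14.6% and 13.8% of all genes.

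Of 9 other root hair transcription factor genes, 7 were tested in sorted cells between the genotypes, with 2 higher, 1 lower and 4 not called, beside 28.5% of all genes called in either direction. Of these 7, 5 passed the low-count filter in both genotypes, the genes called being among them. The bHLH genes LRL1 and LRL2, which promote root hair growth, were higher in sorted myb36-1 cells, at 170 ± 26.9 CPM against 59.9 ± 14.0 CPM in sorted wild-type cells for LRL1 (log2 1.54, SE 0.24, edgeR adjusted p = 0.00325) and at 220 ± 33.3 CPM in sorted myb36-1 cells against 90.9 ± 15.7 CPM in sorted wild-type cells for LRL2 (1.31, SE 0.22, adjusted p = 0.00462). Their relative LRL3 was lower, at 5.22 ± 1.01 CPM in sorted myb36-1 cells and 12.0 ± 0.60 CPM in sorted wild-type cells (-1.17, SE 0.34, edgeR adjusted p = 0.0366). In whole roots LRL2 was the single call among the 9 tested, beside 6.1% of all genes (log2 0.48, edgeR adjusted p = 0.0475). The interaction was called lower for 3 of 9 and higher for 2, beside 28.4% of all genes called, with LRL3 at -1.38, LRL1 at 1.30 and LRL2 at 0.81. AT5G43175, also called lower there, had 0 counts in sorted myb36-1 cells and 42 in sorted wild-type cells, at least 6.37-fold lower. It was not tested between the genotypes in sorted cells. In whole roots it had 38, 19 and 38 counts in myb36-1 and 0, 12 and 14 in wild type. That whole-root difference, a log2 fold change of 1.95, was not called but also enters the interaction.

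Within wild type, 6 of 12 other fate genes tested were higher and 3 lower in sorted cells than in whole roots (median log2 0.49), led by ATML1 (1.61), GEM (1.60), HDA19 (-1.49) and WRKY75 (-1.25). Of the 9 root hair factors, 4 were higher and 3 lower (median 0.75), and with 68.7% of all genes called in that comparison neither share stands apart by itself. The root hair factors were led by AT2G14760 (-5.00), RSL2 (-2.97), GTL1 (2.09) and LRL3 (-1.36), where RSL2 acts late in hair growth and GTL1 ends it. In wild type ATML1 passed the low-count filter only through the sorted libraries, and AT2G14760 only through the whole-root libraries. A difference was thus built into the testing of ATML1 and AT2G14760. In myb36-1, 1 of 11 other fate genes tested was higher and 3 lower, beside 12.3% and 17.3% of all genes, namely JKD (1.99), a ground tissue zinc finger gene that acts on epidermal patterning, against ZFP5 (-5.01), MYC1 (-1.47) and HDG11, the last at least 20.0-fold lower in sorted cells. Of the 9 root hair factors in myb36-1, 3 were higher and 4 lower in sorted cells, with RSL2 at -4.20, LRL3 at -2.75, AT5G43175 at least 12.7-fold lower and AT2G14760 at 3 counts in sorted cells against 445 in whole roots, 59.5-fold lower (exact 95% interval 20.2 to 289, counting error only). In this comparison HDG11, ZFP5, RSL2, AT5G43175 and AT2G14760 passed the low-count filter only through the whole-root libraries.

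Over the 12 libraries, the profiles most like that of GL2 among 18613 genes were those of AT3G05980, OFP15 and ASG8, with root mean square differences of 0.226, 0.231 and 0.235 on the log2(CPM + 1) scale after centring. OFP15, for example, averaged 3.60 ± 0.72 CPM in sorted myb36-1 cells, 21.2 ± 1.85 CPM in sorted wild-type cells, 7.36 ± 0.51 CPM in myb36-1 whole roots and 6.56 ± 0.93 CPM in wild-type whole roots. Among the 10 regulators, TRY was closest to GL2 (0.367), and GL2 was closest to TRY, EGL3 (0.391) and MYB23 (0.470). The added 1 shrinks differences at low levels, so the closeness of TRY to GL2 does not show a like fold change. TRY averaged 0.03 CPM in sorted myb36-1 cells and 3.66 CPM in sorted wild-type cells. MYB23 was also low, at 0.55 CPM in sorted myb36-1 cells. RHD6 and RSL4 were closest to each other (0.598). TTG1 had the most distant nearest partner, GL3, at 0.703. This is a description over libraries that share depth and sort, with no test.

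The authors' deposited table of tests, which pools the replicates into 1 FPKM per genotype, gives the log2 ratio of myb36-1 over wild type in sorted cells as -2.76 for GL2, at 3.36 FPKM in myb36-1 and 22.8 FPKM in wild type (q-value 3.32e-05). For WER the authors' deposited table gives -5.57, at 1.80 FPKM in myb36-1 and 85.7 FPKM in wild type (q-value 0.00104), and for RHD6 -3.08, at 4.45 FPKM in myb36-1 and 37.6 FPKM in wild type (q-value 0.000693). For MYB23 it gives -2.76 in the authors' deposited table (q-value 0.0481), a smaller ratio than the -4.71 fitted to the counts. In the authors' deposited table CPC at -0.55 (q-value 0.489), TRY at -3.81 (0.136), RSL4 at -1.92 (0.0583) and GL3 at -0.56 (0.109) do not pass 0.05, so that CPC, TRY and RSL4 are called from the counts and not there. EGL3 and TTG1 carry the status FAIL in the authors' deposited table for sorted cells. EGL3 stands there at 3.97 FPKM in myb36-1 and 13.7 FPKM in wild type. TTG1 stands at 11.8 FPKM in myb36-1 and 5.94 FPKM in wild type. In the authors' deposited table for whole roots EGL3, GL3 and TTG1 carry the status FAIL. The log2 ratios of the other regulators run there from -0.16 for MYB23 to 0.10 for GL2 (q-value 0.99994 for each). The authors' deposited table runs the GL2 locus on to 30044201 and starts the GL3 locus at 16516634, beyond the annotated gene, and what this did to their FPKM was not tested.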

How the data were processed

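RNA-seq of 12 libraries, 4 groups of 3 biological replicates, was analysed from the deposited tables. The raw counts per locus were deposited by the authors without normalization. The submitters' processing notes name TopHat2, SAMtools, Cufflinks, Cuffdiff and HTSeq with the build TAIR10, and give no versions here. The strand setting of the counting is not given in the sources used here, although the labels describe a strand-specific library kit. The authors' deposited tests list, per the file headers, 1 FPKM per genotype, the log2 ratio, the p-value and the q-value.

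The main test used edgeR 4.0.16 under R 4.3.3 (TMM, filterByExpr by group, quasi-likelihood F-test) on each comparison's own 6 libraries, or all 12 for the interaction. SE is the absolute log2 fold change over the square root of F. Alternatives were RLE scaling, no low-count filter, DESeq2 1.42.0, the replicate number as a block, 1 fit of all 12 libraries, and leaving out each library. The script was tested on simulated data. Depth limits low genes: 3 counts equal 0.265 to 0.435 CPM in sorted myb36-1 cells and 0.135 to 0.181 CPM in sorted wild-type cells. Replicates are biological per the labels, and no 2 libraries of a group agreed within sampling noise.

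The 10 regulators and the other lists were chosen with earlier results of these data known. From each other list the called genes were named, at most 4 per comparison, by absolute log2 fold change. SCM in sorted cells, BRN1 and OFP15 were picked out after their values were seen. All 10 loci matched the RefSeq TAIR10.1 annotation, from which names, coordinates, exon lengths and sequence were taken; AT2G14760 and AT5G43175 have no symbol in it. Of 34968 nuclear loci of the authors' deposited test table, 46.6% start on an annotated exon start.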

Additional observations from a re-analysis of the deposited data

Results flagged for a closer look

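For 8 of the 10 regulators the effect of myb36-1 in sorted endodermis differed from that in whole roots by a test of the difference itself (edgeR interaction, adjusted p under 0.05, beside 28.4% of all genes tested). The differences on the log2 scale, sorted minus whole root, were -2.98 for GL2, -5.71 for WER, -4.60 for MYB23, -2.12 for EGL3, -1.12 for CPC, -2.81 for RHD6 and -1.86 for RSL4. The fitted value for TRY was -6.17, which depends on the prior count because the sorted myb36-1 libraries held 1 count in all. Without sorted myb36-1 replicate 2 the difference was -8.90 for WER and -6.30 for MYB23, and without sorted myb36-1 replicate 3 it was -3.81 for RHD6. Single outlying libraries were not tested for, since each group had 3. Root cap markers differed in the same way, 4 of 5 being called lower in the interaction, beside 14.6% of all genes tested. Their part in these differences was not tested.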

How the results depend on the processing

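Of 589 values recomputed for the 10 regulators, 536 kept their side of the threshold, 32 lost and 21 gained a call. A change of direction with a call in either fit occurred in 0. Values not called in either fit could change sign and count among the 536. RSL4 in whole roots, for example, was -0.05 in the main fit and reached 0.32. The cause of the shifts below was not tested. One fit of all 12 libraries called 9251 genes between genotypes in sorted cells (5225 in the separate fit), 142 in whole roots (1197), and 9057 between sorted cells and whole roots in myb36-1 (5727). In that last comparison it called 6 regulators lower and 1 higher, whereas RLE scaling and the replicate block each called 2 lower and DESeq2 4. Leaving out 1 library gave 2236 to 7017 genes in sorted cells, 594 to 1876 in whole roots, 4299 to 7880 for the interaction, 11958 to 13416 for sorting in wild type and 2905 to 8557 for sorting in myb36-1. The regulators called lower were then 4 to 8 in sorted cells, 5 to 8 for the interaction (5 without wild-type whole-root replicate 3) and 0 to 5 for sorting in myb36-1, with 0 to 1 higher; without wild-type sorted replicate 1, 2 or 3 the sorted counts were 5, 4 and 5. Same-numbered replicates deviated together with correlations of 0.00 to 0.28 in sorted cells, -0.05 to 0.29 in whole roots, 0.05 to 0.18 for sorting in wild type and -0.13 to -0.06 for sorting in myb36-1, and not every library correlated best with its own number, so the numbers are not taken to pair the samples; with the replicate block 8 regulators were called lower in sorted cells and 8 in the interaction. The shallower mutant sorted libraries limit WER, MYB23 and TRY, which had 1 to 25, 0 to 11 and 0 to 1 counts per library there.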
